A study of Rattus norvegicus with 20 samples.

Results

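The kinesin, dynein and dynactin genes described here are the 32 genes of the array whose deposited gene name begins with Kif and a digit, Klc and a digit, Dync, Dynl or Dctn, out of 41012 gene probes. Where a gene had several probes, the one of highest mean signal stands for it. Of the 32 genes, 24 belong to the plus-end side (kinesins that walk toward the plus end of microtubules and the kinesin light chains Klc2 and Klc3), 5 to the minus-end side and 3 to neither (Kif26a, Kif2b and Kif2c). A gene was tested if, for 1 cell type at 1 day, its probe was clearly above background in 3 or more animals, on each array of the dye swap. This held for 27 of the 32, 22 on the plus-end side and 5 on the minus-end side, among 30890 tested features in all. No deposited name begins with Dync or Dynl. The 5 minus-end genes are therefore all subunits of dynactin (Dctn1, Dctn2, Dctn3, Dctn4 and Dctn6), and the name "dynein" is not borne out by the array names. Today's RefSeq symbols of 29 further genes do meet the rule while the array lists them otherwise, for example Dync1h1 as Dnch1, Dynll1 as Dnclc1, Klc1 as Kns2 and Kif15 as Knsl7. These 29 genes, 26 of them tested, are given apart as the genes under older names.

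The samples were neurons of the cortex beside a stroke in Rattus norvegicus aged 2 years, captured by laser from 10 animals, 5 in the cohort of day 7 and 5 others in the cohort of day 21. All animals had the stroke and injections of CTb-Alexa 488 and later, at the same place, CTb-Alexa 647, both conjugates of cholera toxin B, a tracer that neurons carry back from their axon endings. The day is the survival period before the later tracer, and capture followed 7 days after it. Each animal gave a pool of about 300 neurons labelled sprouting and another labelled non-sprouting, and no uninjured group is analysed here. Both pools of an animal were hybridised on 1 two-colour array and again with the dyes exchanged, so that each animal gave 1 ratio per gene. Values are log2 ratios of sprouting over non-sprouting neurons unless called a level, which is the log2 signal of 1 pool. Errors are SD over animals or, where stated, the SE of the limma fit.

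Kinesins and cytoplasmic dynein are motors that carry cargo along microtubules. In an axon, whose microtubules point their plus ends outward, most kinesins move vesicles, mitochondria and cytoskeletal cargo toward the axon tip, while dynein with its activator dynactin moves signalling endosomes and worn organelles back to the cell body. Other kinesins build and separate the spindle in dividing cells and are expressed mainly there.

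Promoters are shown for 4 of these genes because the results turn on them: Kif22 and Kif4a, spindle kinesins with a high value in 1 animal, and Kif3a and Kif3b, partners in 1 motor. Each is the run of 250 bases before the gene's start in the RefSeq table of the GRCr8 assembly, 5′ to 3′ on the gene's strand. Capitals mark TTTGAA (the core of the cell cycle homology element), CCAAT (the CCAAT box) and GGGCGG (the GC box) on either strand. The array's Kif4 is Kif4a in that table. Kif22 lies at chr1:191080879-191081128 on the minus strand, Kif4a at chrX:69761633-69761882, Kif3a at chr10:38226520-38226769 and Kif3b at chr3:162218438-162218687, these 3 on the plus strand.
Kif22: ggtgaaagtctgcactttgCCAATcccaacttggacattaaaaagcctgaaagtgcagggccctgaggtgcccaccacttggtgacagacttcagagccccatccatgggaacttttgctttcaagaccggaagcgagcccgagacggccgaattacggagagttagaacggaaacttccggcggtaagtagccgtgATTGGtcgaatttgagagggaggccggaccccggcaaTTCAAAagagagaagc
Kif4a: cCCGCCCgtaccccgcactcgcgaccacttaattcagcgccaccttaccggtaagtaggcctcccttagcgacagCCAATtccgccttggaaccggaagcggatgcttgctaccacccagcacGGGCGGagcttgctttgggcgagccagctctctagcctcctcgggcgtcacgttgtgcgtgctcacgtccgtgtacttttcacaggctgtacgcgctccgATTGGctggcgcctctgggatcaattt
Kif3a: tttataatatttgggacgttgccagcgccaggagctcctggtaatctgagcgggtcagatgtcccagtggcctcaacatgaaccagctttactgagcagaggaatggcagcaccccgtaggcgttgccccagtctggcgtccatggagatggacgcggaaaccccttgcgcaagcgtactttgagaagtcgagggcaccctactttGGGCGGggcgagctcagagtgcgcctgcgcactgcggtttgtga
Kif3b: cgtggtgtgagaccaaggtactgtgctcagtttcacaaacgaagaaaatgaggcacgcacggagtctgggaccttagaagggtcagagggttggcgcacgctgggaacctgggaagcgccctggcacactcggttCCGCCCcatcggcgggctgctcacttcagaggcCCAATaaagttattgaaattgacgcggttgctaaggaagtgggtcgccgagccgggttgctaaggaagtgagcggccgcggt

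Kif22 held 1 TTTGAA, beginning 16 bases before the start, and CCAAT boxes 53 and 231 bases before it. Kif4a held CCAAT boxes beginning 27 and 175 bases before the start, GC boxes at 127 and 249 bases and no TTTGAA in this window. Kif3a held a GC box alone, 44 bases before the start, and Kif3b a GC box at 115 and a CCAAT box at 82 bases. Promoters of 24 of the 32 genes were in the table. A CCAAT box was present in all 5 of the mitotic kinesins among them and in 6 of the other 19, against 34.02% of all 33469 promoters. TTTGAA was present in 2 of the 5 and in 1 of the other 19, against 16.2% of all promoters, and the GC box in 3 of the 5 and 13 of the other 19, against 30.5% of all. These are counts of letters, not of bound sites.

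Several measures of the arrays bear on the values below. Green spots well above background were 51.5% on the forward array of day 7 replicate 2, which had 1913 outlier spots. They were 35.8% on the dye-swap array of day 21 replicate 3. On the dye-swap array of day 21 replicate 4, 20.8% of green spots were well above background, and across all features, which are not independent, its ratios had a correlation of 0.053 with those of the forward array of the same animal. In the other 9 animals that correlation was 0.328 to 0.888, the highest being day 7 replicate 1. That animal was alone on its scan date, and its arrays had 304 and 385 saturated red spots, against 153 at most on the others. The neuronal label was checked on 8 markers (Rbfox3, Snap25, Syt1, Nefl, Nefm, Stmn2, Slc17a7 and Camk2a). All 8 were tested and 5 were well above background in every one of the 40 channels. Of the 8, 3 had a mean ratio above 0 at day 7 and 4 at day 21, with medians of -0.055 and -0.041. Single animals lay farther out. Nefm had -1.12 to 0.62 at day 7, and day 21 replicate 5 had Snap25 at 1.94 and Syt1 at -2.03. The pools of an animal were thus not shown to be alike in these markers. Markers of other cells were also measurable: 4 of 9 of microglia and macrophages, 4 of 7 of oligodendrocytes, 2 of 7 of astrocytes, 1 of 9 of dividing cells and 0 of 6 of endothelium were well above background in all 40 channels. In pools of captured cells, fewer cells of a type and less RNA per cell cannot be told apart.

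The first comparison was between sprouting and non-sprouting neurons of the same animal at day 7. The motor genes as a whole lay close to 0: 15 of the 27 had a mean ratio above 0 and 12 below, and the median was 0.013, against -0.0020 over all features. In limma 0 of the 27 passed an adjusted p of 0.05, against 0% of all features. Only Kif3a had an unadjusted p under 0.05, which 6.13% of features had. None of the 27 was above 0 in all 5 animals (4.9% of features were) and 2 were below 0 in all 5, Kif3a and Kif5a (5.44% of features were).

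**Figure D1:**
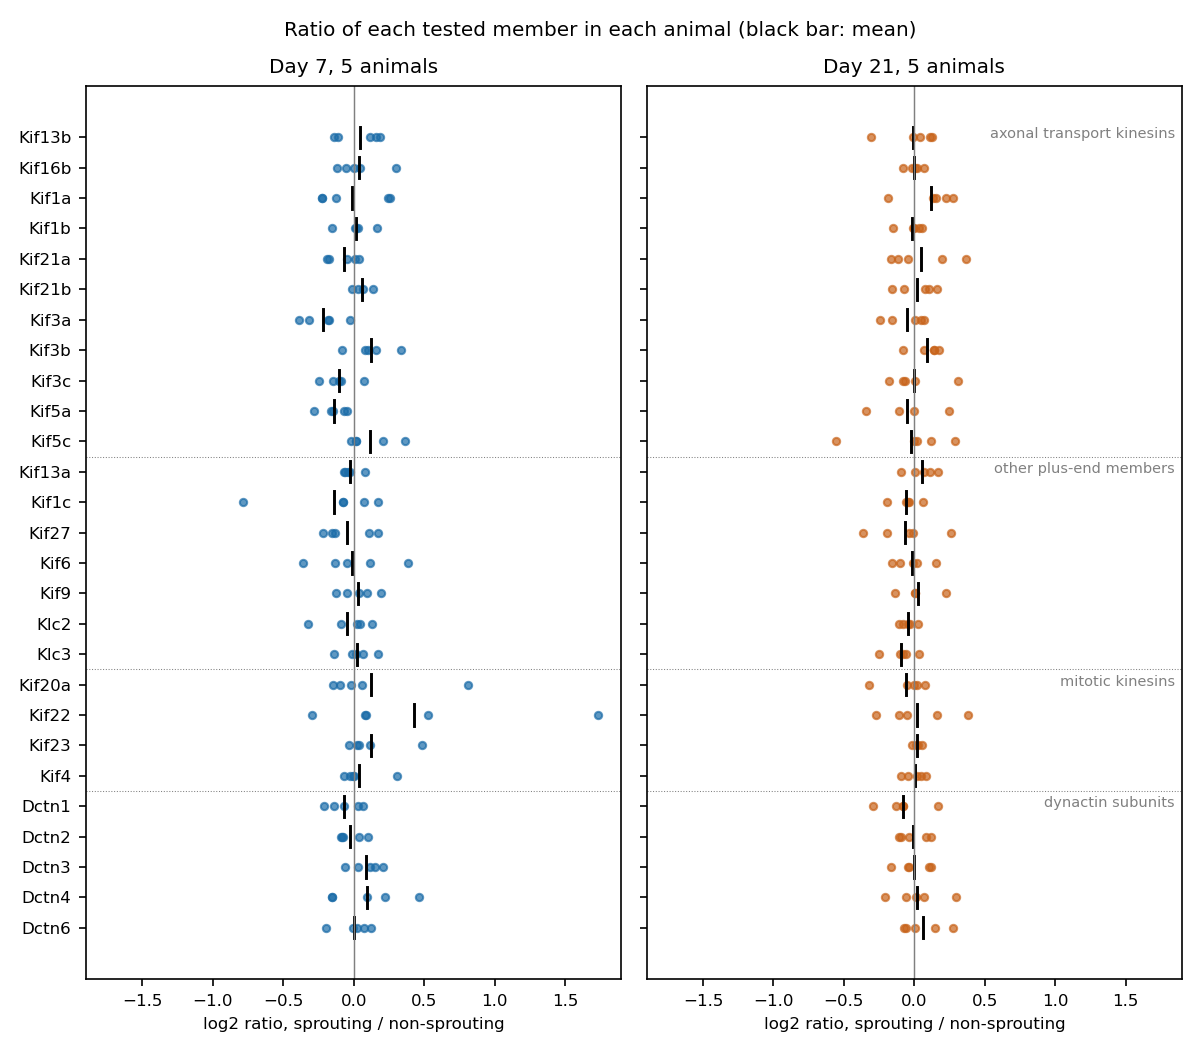
Log2 ratio of sprouting over non-sprouting neurons (x axis) of each of the 27 tested genes (y axis) in each animal, at day 7 on the left and day 21 on the right; dots are animals and black bars their mean. Most dots lie within 0.4 of 0 on either side, and the farthest is Kif22 at 1.73 in 1 animal at day 7.

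The axonal transport kinesins are 11 of the 27, and all 11 were tested. At day 7, 6 had a mean above 0 and 5 below, with a median of 0.013 and 1 at an unadjusted p under 0.05. The heterotrimeric kinesin-2 motor pairs the subunits Kif3a and Kif3b, or Kif3a and Kif3c, and carries vesicles along axons and building material into cilia. Kif3a had ratios of -0.39, -0.31, -0.18, -0.026 and -0.17 in replicates 1 to 5 of day 7. All 5 animals, and 9 of 10 arrays, gave a value below 0, with a mean of -0.22 ± 0.14 (SD, n = 5), an SE of 0.060 and an adjusted p of 0.688 in limma. The two-sided exact sign-flip test gave p = 0.0625, the smallest that 5 animals allow. Forward arrays alone gave a mean of -0.21, swapped arrays alone -0.22.

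Kif3b, the usual partner of Kif3a, had ratios of -0.084, 0.34, 0.10, 0.083 and 0.16 in the same animals. It was thus higher in sprouting neurons of 4 of 5 animals, with a mean of 0.12 ± 0.15 (SD, n = 5) and an adjusted p of 0.817 in limma. A further probe of Kif3b had a mean of 0.071 at day 7, above 0 in 3 of 5 animals. Kif3c had a mean of -0.10 ± 0.11 (SD, n = 5), below 0 in 4 of 5 animals, with an adjusted p of 0.835 in limma. The subunits of this motor therefore did not share a sign at day 7, and none of them passed the test.

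Kinesin-1 is the main motor of fast outward transport and is a pair of Kif5 heavy chains that bind cargo through light chains. Kif5a, a heavy chain of neurons, had ratios of -0.29, -0.16, -0.069, -0.14 and -0.050 at day 7. All 5 animals lay below 0, and the mean was -0.14 ± 0.093 (SD, n = 5) with an adjusted p of 0.834 in limma. Kif5c, another heavy chain of neurons, had a mean of 0.12 ± 0.16 (SD, n = 5), above 0 in 4 of 5 animals, with an adjusted p of 0.876. The light chain Klc2 had -0.045 ± 0.18 (SD, n = 5) and Klc3 0.020 ± 0.11 (SD, n = 5), each above 0 in 3 of 5 animals. The heavy chains thus lay on both sides of 0.

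Among kinesins of the Kif1 family, which carry synaptic vesicle precursors and mitochondria, Kif1a had a mean of -0.014 ± 0.25 (SD, n = 5) at day 7. Its animals were split, with 0.26 and 0.25 in replicates 2 and 5 and -0.22, -0.13 and -0.22 in the others. Kif1b had 0.013 ± 0.11 (SD, n = 5). Kif13b, a vesicle motor, had 0.042 ± 0.15, and Kif16b, a motor of early endosomes, 0.035 ± 0.16 (SD, n = 5 each). Kif21a, which also acts on microtubule growth, had -0.071 ± 0.10 (SD, n = 5), and Kif21b 0.057 ± 0.062 over 4 animals, since its spot in replicate 1 was marked as an outlier and left out. For each of these the SD was larger than the mean.

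**Figure D2:**
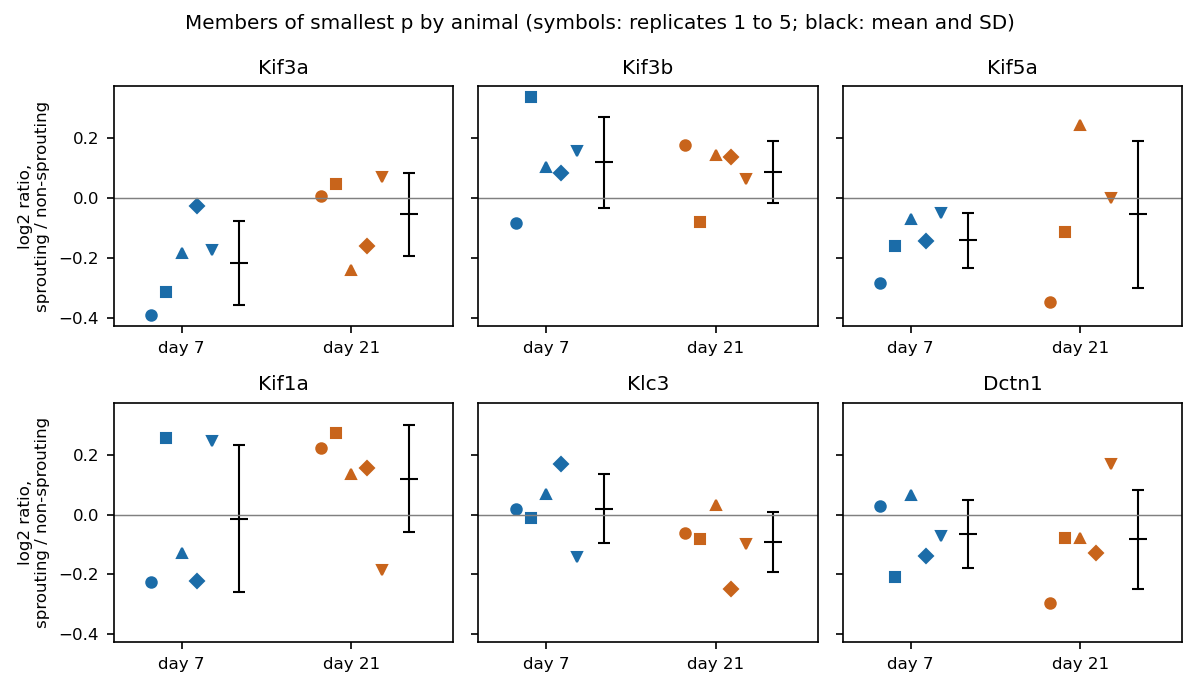
Log2 ratio of sprouting over non-sprouting neurons (y axis) at day 7 and day 21 (x axis) for Kif3a, Kif3b, Kif5a, Kif1a, Klc3 and Dctn1; symbols are animals, 1 shape per replicate number, and the black mark with bars is the mean with its SD over 5 animals (4 for Kif5a at day 21). Kif3a and Kif5a lie below 0 in every day 7 animal, and at day 21 each gene has animals on both sides of 0.

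The mitotic kinesins are 7 of the 32 genes. Kif4, Kif20a, Kif22 and Kif23, which organise the spindle, chromosome arms and cell separation, were tested, while Kif11, Kif14 and Kif2c were not well above background often enough. At day 7 all 4 tested had a mean above 0, where 15061 of 30889 features did. Their median was 0.12, with 0 at an unadjusted p under 0.05. Kif22 had ratios of 1.73, 0.079, 0.53, -0.29 and 0.085, a mean of 0.43 ± 0.79 (SD, n = 5) with an adjusted p of 0.834 in limma, and 0.099 without replicate 1. Kif20a had 0.81 in replicate 1 and -0.15 to 0.058 in the others, Kif23 had 0.48 in replicate 1 and -0.036 to 0.12 in the others, and Kif4 had 0.31 in replicate 1 and -0.072 to 0.0024 in the others. Each of the 4 genes had its highest ratio in the same animal. In levels, its sprouting pool was the highest of day 7 for Kif22 alone, at 8.98 against 7.68 to 8.30. Its non-sprouting pool was the lowest of day 7 for all 4, at 7.25 (Kif22), 6.68 (Kif20a), 7.19 (Kif23) and 6.30 (Kif4). Of the 4 tested mitotic kinesins under older names, Kif15 had 1.92 in that animal and -0.42 to 0.20 in the other day 7 animals. The rest had -0.017 (Kif18a), 0.070 (Kif18b) and 0.27 (Kif20b) in that animal.

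Markers of dividing cells were read in the same animals. In day 7 replicate 1 all 8 tested markers (of 9 listed, Mki67 not passing the filter) were above 0, with a median of 0.49, led by Cdk1 at 2.55, Ccna2 at 2.05 and Bub1 at 2.00. Between 3 and 6 of the 8 were above 0 in each other day 7 animal, with medians of -0.025 to 0.076. The summed log2 level of the list in sprouting pools was 12.1 in that animal and 11.2 to 11.4 in the other 4. In non-sprouting pools of day 7 it was 11.2 to 11.5, with 11.3 in replicate 1, and at day 21 it was 10.9 to 11.3 in sprouting and 10.8 to 11.4 in non-sprouting pools. The same animal also had the highest ratio of Lyz2, a lysozyme gene of macrophages, at 4.21, and of Cd68, a lysosomal protein of macrophages, at 1.45. In it 6 of the 9 microglia and macrophage markers were above 0, with a median of 0.11. Those below 0 were C1qa at -0.46, C1qb at -0.42 and Cx3cr1 at -0.36. The summed level of those 9 was 15.3 in its sprouting pool and 14.5 in its non-sprouting pool, against 12.6 to 13.4 in all other day 7 pools and 12.3 to 12.8 at day 21. That animal was also alone on its scan date. The part of these cells, or of the scan date, in the kinesin values was not tested.

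**Figure D3:**
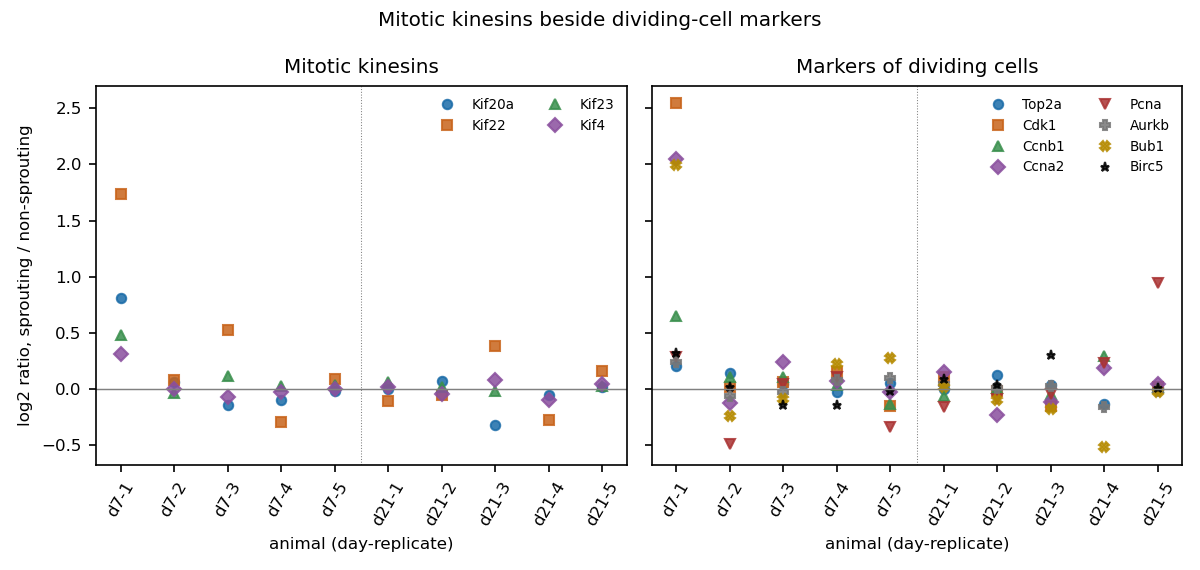
Log2 ratio of sprouting over non-sprouting neurons (y axis) in each of the 10 animals (x axis, day and replicate number) for the 4 tested mitotic kinesins on the left and the 8 tested markers of dividing cells on the right; each symbol is 1 gene, and spots left out as outliers are not drawn. Day 7 replicate 1 holds the highest value of every kinesin shown, up to 1.73 for Kif22, and of Cdk1 at 2.55.

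The remaining plus-end genes at day 7 had means of -0.14 (Kif1c) to 0.032 (Kif9). Kif1c, which carries vesicles and mRNA, had its lowest value, -0.79, in replicate 2, with the rest from -0.078 to 0.17, giving a mean of -0.14 ± 0.38 (SD, n = 5). In that animal 0 of 7 oligodendrocyte markers were above 0, with ratios of -1.56 (Mbp, a myelin protein) to -0.25 and a median of -0.74. In the other day 7 animals 3 to 6 of the 7 were above 0, with medians of -0.029 to 0.27. The summed level of those 7 in that animal was 14.8 in its sprouting and 15.5 in its non-sprouting pool, against 15.3 to 15.8 in the other sprouting and 15.1 to 15.5 in the other non-sprouting pools of day 7. The level of Kif1c in that animal was 10.6 in its sprouting pool, against 10.5 to 11.3 in the other sprouting pools of day 7. In its non-sprouting pool it was 11.4, against 10.3 to 11.2. Other marker lists there had 7 of 8 (neurons), 4 of 7 (astrocytes), 2 of 9 (microglia and macrophages), 3 of 5 (endothelium), 4 of 8 (dividing cells) and 1 of 5 (ciliated ependymal cells) above 0. The forward array of that animal had 1913 outlier spots, and its ratios had a correlation of 0.800 with those of the swapped array. The part of that array, or of any of these cells, in the Kif1c value was not tested. Kif13a, a vesicle motor, had -0.024 ± 0.059, and Kif6, Kif9 and Kif27, kinesins known from cilia and flagella, had -0.0089 ± 0.28, 0.032 ± 0.12 and -0.045 ± 0.17 (SD, n = 5 each). Their adjusted p in limma ranged from 0.866 to 0.991. A further probe had the other sign at day 7 for Kif1a (0.15), Kif16b (-0.029), Klc3 (-0.025), Kif9 (-0.028) and Kif27 (0.023).

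On the minus-end side, 3 of the 5 dynactin subunits had a mean above 0 at day 7 and 2 below, with 0 at an unadjusted p under 0.05. Dctn1, the p150 arm that binds microtubules and dynein, had -0.066 ± 0.11, and Dctn2, which joins the arm to the filament, -0.023 ± 0.087 (SD, n = 5 each). Dctn3, the shoulder subunit, had 0.088 ± 0.11 and was above 0 in 4 of 5 animals. Dctn4 and Dctn6, subunits of the pointed end, had 0.095 ± 0.26 and 0.0037 ± 0.12 (SD, n = 5 each). The smallest adjusted p of the 5 was 0.834 in limma.

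The contrast of plus-end with minus-end genes was read as the median ratio of the 22 plus-end genes minus that of the 5 dynactin subunits in each animal, with no test, since the members were chosen with results known. At day 7 it was -0.055, -0.10, -0.12, 0.0024 and 0.13 in replicates 1 to 5, a mean of -0.029 ± 0.10 (SD, n = 5). It was above 0 in 2 of 5 animals, and the spread was larger than the mean. At day 21 it was 0.052, 0.024, -0.054, -0.077 and 0.073, a mean of 0.0039 ± 0.066 (SD, n = 5), above 0 in 3 of 5. From gene means over the animals it was 0.013 at day 7 and -0.00017 at day 21. With the genes under older names counted in (30 plus-end and 21 minus-end genes) it was 0.027 at day 7 and -0.022 at day 21. Neither side was thus set apart from the other beyond the spread of the animals.

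**Figure D4:**
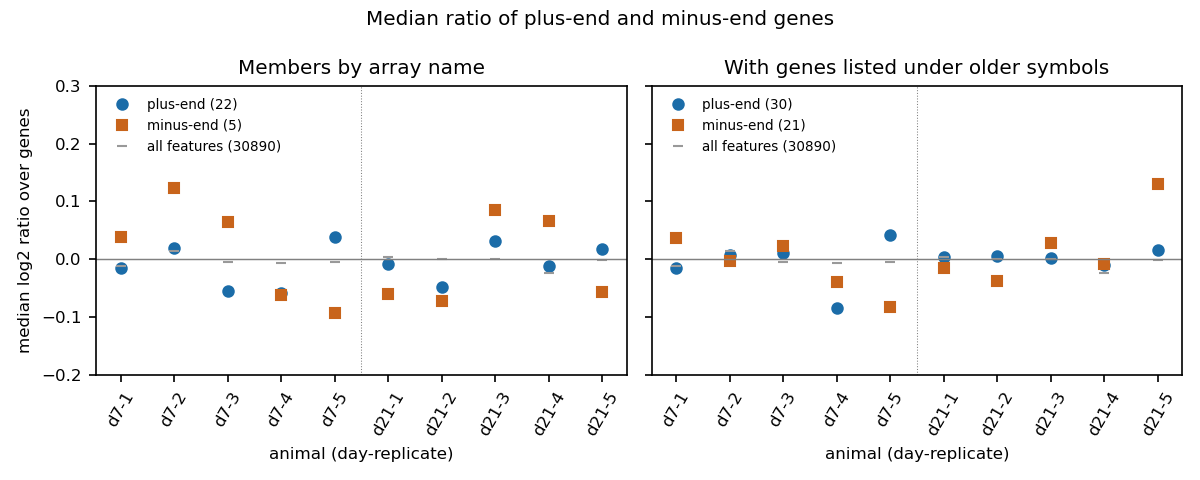
Median log2 ratio of sprouting over non-sprouting neurons (y axis) over plus-end genes, minus-end genes and all features in each of the 10 animals (x axis, day and replicate number), for the 27 tested genes on the left and with the genes under older names on the right; numbers in brackets are genes. The order of circles and squares changes between animals, with circles above squares in 2 of 5 animals at day 7 and 3 of 5 at day 21 on the left.

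At day 21 the ratios of the motor genes again lay on both sides of 0. Of the 27, 11 had a mean above 0 and 16 below, with a median of -0.0052 against -0.0011 over all features. In limma 0 passed an adjusted p of 0.05, against 0% of features, and 0 had an unadjusted p under 0.05, against 4.79% of features. None had 1 sign in all 5 animals (2.44% of features were above 0 in all 5 and 3.25% below). Klc3 had the smallest p, with ratios of -0.062, -0.080, 0.032, -0.25 and -0.10 in replicates 1 to 5, a mean of -0.092 ± 0.10 (SD, n = 5) and an adjusted p of 0.918 in limma. Its ratio was below 0 in 4 of 5 animals, and a further probe of Klc3 had a mean of 0.0018. Both probes were dim, each with a mean log2 signal of 6.33, below the 6.39 of Kif11, which was not tested.

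Kif3b had ratios of 0.18, -0.081, 0.14, 0.14 and 0.065 at day 21, a mean of 0.088 ± 0.10 (SD, n = 5) with an adjusted p of 0.918 in limma. As at day 7, 4 of 5 animals were above 0, but the further probe of Kif3b had a mean of -0.20 at day 21. Kif1a had 0.22, 0.27, 0.13, 0.16 and -0.18, a mean of 0.12 ± 0.18 (SD, n = 5), higher in sprouting neurons of 4 of 5 animals, with an adjusted p of 0.918. A further probe of Kif1a had -0.044. For both genes the sign at day 21 thus depended on the probe. The further Kif3b probe was much dimmer, with a mean log2 signal of 6.95 against 11.84. For Kif1a the further probe had 9.07 against 9.37. Dctn1 had a mean of -0.083 ± 0.17 and was below 0 in 4 of 5 animals, and Kif13a had 0.052 ± 0.10 (SD, n = 5 each), above 0 in 4 of 5.

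The other axonal transport kinesins had day 21 means of -0.055 ± 0.14 (Kif3a), -0.0038 ± 0.19 (Kif3c), -0.027 ± 0.32 (Kif5c), -0.016 ± 0.082 (Kif1b), 0.047 ± 0.23 (Kif21a) and 0.022 ± 0.13 (Kif21b; SD, n = 5 each). Kif13b had -0.0070 ± 0.18 and Kif16b -0.00046 ± 0.055 (SD, n = 5 each). Kif5a had -0.35, -0.11, 0.25 and -0.0014 in replicates 1, 2, 3 and 5, with replicate 4 left out for an outlying spot, a mean of -0.054 ± 0.25 (SD, n = 4). The mitotic kinesins were between -0.058 (Kif20a) and 0.022 (Kif22), so that none stood near its value in day 7 replicate 1. Dctn2, Dctn3, Dctn4 and Dctn6 were between -0.0068 and 0.059, and Klc2 had -0.047 ± 0.052 (SD, n = 5).

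The ratios of day 21 were then set against those of day 7. In limma 0 of the 27 passed an adjusted p of 0.05 (0% of features) and 0 an unadjusted p under 0.05 (4.17% of features). Kif3a had the smallest p, with a ratio higher by 0.16 (SE 0.086) at day 21 and an adjusted p of 0.922 in limma. A two-sided exact permutation of the day over its 10 animals gave p = 0.0952. Its day 7 and day 21 values overlapped, from -0.39 to -0.026 and from -0.24 to 0.072. Klc3 was lower by 0.11 at day 21 and Kif13a higher by 0.076, and their days overlapped too. Dctn3 was lower by 0.094, and Kif22 by 0.40, each with an adjusted p of 0.922 in limma. Without day 7 replicate 1 the Kif22 difference was -0.078.

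Averaged over both days, 15 of the 27 genes were above 0 and 12 below, and 0 passed an adjusted p of 0.05 in limma, against 0.00324% of features. An unadjusted p under 0.05 was reached by 2, and by 6.48% of features: Kif3a at -0.14 (SE 0.043, unadjusted p = 0.00939, adjusted p = 0.704 in limma) and Kif3b at 0.10 (SE 0.040, unadjusted p = 0.0273, adjusted p = 0.759 in limma). Over the 10 animals Kif3a was below 0 in 7 and Kif3b above 0 in 8. Kif5a had -0.098, Dctn1 -0.074, Kif23 0.072 and Kif22 0.22. Without day 7 replicate 1 Kif23 had 0.027 and Kif22 0.060.

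Among the genes under older names, the 16 tested minus-end genes, all of dynein or dynactin, had a median ratio of -0.015 at day 7, with 6 above 0, and of 0.019 at day 21, with 10 above 0. In limma 0 of the 26 passed an adjusted p of 0.05 at either day. Dync1h1, the heavy chain that holds the motor of cytoplasmic dynein, had 0.042 ± 0.11 at day 7 and -0.038 ± 0.19 at day 21 (SD, n = 5 each). The intermediate chain Dync1i1, which binds dynactin and is the form of neurons, had -0.034, -0.041, -0.22, -0.028 and -0.24 at day 7, below 0 in all 5 animals, with a mean of -0.11 ± 0.11 (SD, n = 5) and an adjusted p of 0.823 in limma. At day 21 it had -0.024 ± 0.14 (SD, n = 5), with 2 animals above 0. The intermediate chain Dync1i2 had -0.15 ± 0.24 at day 7 and 0.12 ± 0.68 at day 21, where replicate 5 had 1.33 (SD, n = 5 each). A further probe of Dync1i2 had the opposite signs, 0.26 and -0.22.

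The light intermediate chain Dync1li1, which links the motor to cargo adaptors, was above 0 in all 5 animals at day 7, with a mean of 0.073 ± 0.071, while Dync1li2 had -0.0078 ± 0.16 (SD, n = 5 each) and a further probe of Dync1li2 had 0.18, above 0 in all 5. Of the light chains, Dynll1 had 0.035 ± 0.15 at day 7 and 0.13 ± 0.11 at day 21, where 4 of 5 animals were above 0 and the adjusted p was 0.918 in limma (SD, n = 5 each). Saturation was marked for Dynll1 on 4 of 10 arrays at day 7. Dynll2 had 0.042 ± 0.18 at day 7 and 0.086 ± 0.090 at day 21 (SD, n = 5 each), above 0 in all 5 animals of day 21, but a further probe of Dynll2 had -0.11 and -0.012. Dynlrb1 had 0.0064 ± 0.15 and 0.0055 ± 0.073, Dynlt3 -0.16 ± 0.25 and -0.14 ± 0.50 (SD, n = 5 each), and a further probe of Dynlt3 had 0.065 and 0.087. Dynlt1 had 0.36 ± 0.74 at day 7 over 4 animals, 1 of them replicate 1 with 1.37, and 0.12 ± 0.24 (SD, n = 5) at day 21. Kif5b, the heavy chain of kinesin-1 found in most cells, had -0.068 ± 0.17 (SD, n = 5) at day 7, its further probes -0.11 and 0.051, and Klc1, the light chain of neurons, -0.12 ± 0.16 (SD, n = 5), with adjusted p of 0.884 and 0.834 in limma. The dynein subunits thus lay on both sides of 0 at each day, as the dynactin subunits did.

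Partners of the motors (adaptors, regulators and microtubule-end proteins that are not members) were read from a list of 43 genes, 37 of them tested. At day 7, 18 were above 0 and 19 below, 0 passed in limma and 2 had an unadjusted p under 0.05, near the 6.13% of all features, both lower in sprouting neurons. Rhot1, which ties mitochondria to kinesin, had -0.30, -0.42, -0.11, -0.073 and -0.15, below 0 in all 5 animals, a mean of -0.21 ± 0.15 (SD, n = 5) with an adjusted p of 0.787 in limma. Clstn2, a calsyntenin, the family whose member Clstn1 links kinesin-1 to vesicles, had -0.26 ± 0.25 (SD, n = 5) and Mapre1, which rides growing plus ends, 0.20 ± 0.30 (SD, n = 5), of which replicate 1 had 0.71.

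At day 21, 11 of the 37 were above 0 and 26 below, where 15662 of 30890 features were below 0. The median was -0.026 against -0.0011 over all features. By animal it was -0.0067, -0.017, 0.017, -0.11 and -0.044 in replicates 1 to 5, lowest in replicate 4, whose arrays had the correlation of 0.053. In limma 0 of the 37 passed and 2 had an unadjusted p under 0.05, near the 4.79% of all features. Kifap3, the third subunit of the Kif3 motor, had -0.043, 0.018, -0.35, -0.33 and -0.24, below 0 in 4 of 5 animals, a mean of -0.19 ± 0.17 (SD, n = 5) with an adjusted p of 0.918 in limma. Mapk8ip2, a scaffold that binds kinesin light chains, had -0.14 ± 0.15 and Trak2, a mitochondrial adaptor, -0.18 ± 0.19 (SD, n = 5 each), both below 0 in all 5 animals, as 3.25% of features were. Both were lowest in replicate 4, at -0.39 and -0.49. Between the days Clip1, a plus-end protein, differed by -0.43 (SE 0.19), Rhot1 by 0.24 (SE 0.11) and Kifc1, a spindle motor that walks to the minus end, by -0.26 (SE 0.15), each with an adjusted p of 0.922 in limma. Kifc1 had 0.82 in day 7 replicate 1, the animal with high markers of dividing cells, and differed by -0.11 without it. Averaged over the days Kifap3 had -0.15 (SE 0.045, adjusted p = 0.704), Clstn2 -0.21 (adjusted p = 0.713) and Mapk8ip2 -0.098 (adjusted p = 0.759 in limma).

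Levels were compared between the days within each cell type. The cohorts were separate and on separate arrays, and their scan dates overlapped in 1 date alone, which held day 7 replicates 4 and 5 and day 21 replicate 1. In sprouting neurons 0 of the 27 genes passed an adjusted p of 0.05 in limma, against 2.89% of features, and 4 had an unadjusted p under 0.05, against 19.3% of features. In non-sprouting neurons 0 of the 27 passed, against 2.78% of features, and 3 had an unadjusted p under 0.05, against 19.9%. The median difference of all features was -0.070 in sprouting and -0.068 in non-sprouting neurons. That of the 27 genes was -0.013 and 0.0035.

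All 5 dynactin subunits were lower at day 21 in both cell types by their means. So were 18499 of 30889 features in sprouting and 18313 in non-sprouting neurons. The medians of the 5 were -0.21 in sprouting and -0.20 in non-sprouting neurons. In each cell type 1 of the 5 had an unadjusted p under 0.05, against 19.3% and 19.9% of features. The pools of an animal share arrays, so the cell types are not separate replicates. With scan date as a fixed block only 2 of the 5 lay below 0 in each cell type. With it as a random block 4 did in sprouting and 2 in non-sprouting neurons. The fixed-block difference, averaged over both cell types, rests on the shared scan date alone, 1 day 21 animal against 2 of day 7. Dctn6 had levels of 11.3, 11.3, 10.8, 10.8 and 10.7 in sprouting neurons at day 7 and of 10.6, 10.7, 10.8, 10.3 and 10.2 at day 21. The days overlapped in their range, and the highest levels were in day 7 replicates 1 and 2 and the lowest in day 21 replicates 4 and 5. The difference was -0.44 (SE 0.17, adjusted p = 0.173 in limma) in sprouting and -0.49 (adjusted p = 0.125) in non-sprouting neurons. With scan date as a fixed block it was -0.087 and -0.14. Within the shared scan date the sprouting level was 10.6 in the day 21 animal and 10.8 and 10.7 in the day 7 animals.

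Kif16b had levels of 6.57 to 6.91 in sprouting neurons at day 7 and of 6.73, 7.13, 6.66, 8.16 and 8.12 at day 21, and in non-sprouting neurons day 21 replicates 4 and 5 had 8.24 and 8.12. The difference of 0.62 in sprouting and 0.66 in non-sprouting neurons (adjusted p = 0.195 and 0.167 in limma) thus came with high levels in these 2 animals, which share a scan date. With scan date as a fixed block it was -0.029 and 0.0069. Klc2 had 7.09 to 7.22 in sprouting neurons at day 7 and 7.28, 7.24, 7.40, 7.50 and 8.91 at day 21. In sprouting neurons 1 animal lay far above the rest. The Klc2 difference of 0.51 in each cell type (adjusted p = 0.251 and 0.242 in limma) was 0.093 and 0.095 with scan date as a fixed block. Kif13a differed by 0.22 and 0.15, and Kif13b differed by -0.30 and -0.25. With scan date as a fixed block Kif13a had 0.14 and 0.061, and Kif13b -0.35 and -0.30. Kif23 differed by 0.55 in non-sprouting neurons, with a level of 9.52 in day 21 replicate 5 and of 7.19 to 7.66 in the other non-sprouting pools measured, and by 0.027 without that animal. Kif22 differed by -0.66 in sprouting and -0.26 in non-sprouting neurons. With scan date as a fixed block Kif22 had -0.37 and 0.039. Without day 21 replicate 5 its difference in non-sprouting neurons was -0.056. The fixed-block values rest on the shared scan date, so they cannot show the part of scan date in the differences over all animals. That part was not tested.

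**Figure D5:**
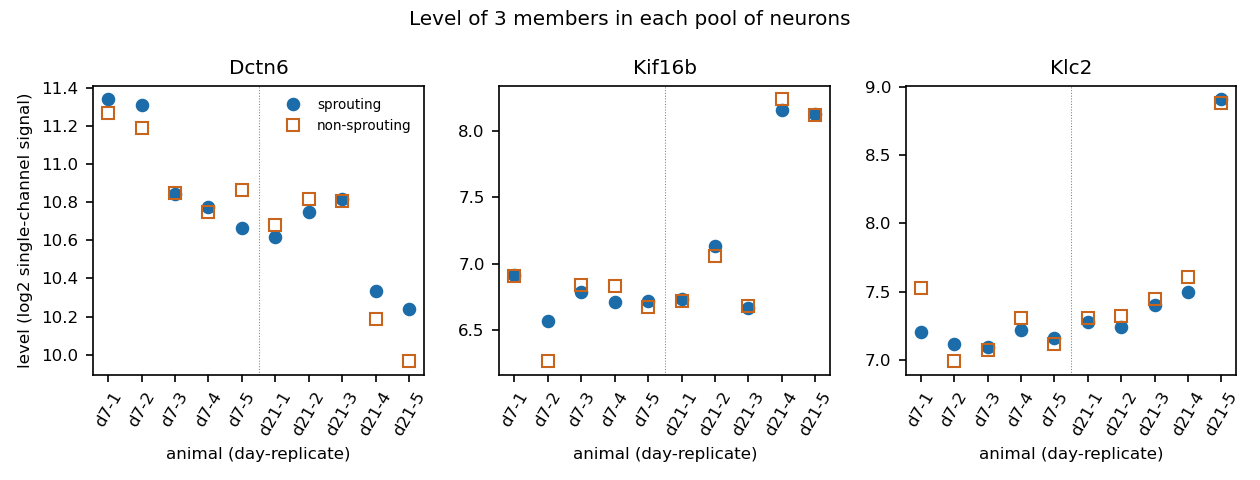
Level (log2 single-channel signal, y axis) of Dctn6, Kif16b and Klc2 in the sprouting (filled circles) and non-sprouting (open squares) pool of each of the 10 animals (x axis, day and replicate number). The pools of an animal lie close together, Kif16b is above 8.1 in day 21 replicates 4 and 5 and Klc2 is near 8.9 in day 21 replicate 5.

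Among the 26 tested genes under older names, 1 passed in levels, in non-sprouting neurons, where 2.78% of features did: Kif4b, named as a relative of Kif4, differed by -0.37 in non-sprouting neurons at day 21 (SE 0.098, adjusted p = 0.0483 in limma) and by -0.25 in sprouting neurons (adjusted p = 0.162). With scan date as a fixed block, which rests on the shared date, these were -0.29 and -0.18. Leaving out 1 animal at a time, Kif4b in non-sprouting neurons had an adjusted p of 0.0242 to 0.161 in limma. It passed without day 21 replicate 1 or 3 and did not pass without any 1 of the other 8 animals. Dynll1 differed by -0.36 and -0.46, with adjusted p of 0.163 and 0.0792 in limma, and Dctn5 by -0.56 and -0.66, with adjusted p of 0.164 and 0.101 in limma. With scan date as a fixed block Dynll1 had -0.16 and -0.26, and Dctn5 -0.066 and -0.17.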

How the data were processed

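Agilent Feature Extraction, version 9.1.3.1 per the file headers, had turned images into values. Spot intensity (mean and background, linear scale) was used as deposited, per the file headers. The deposited log10 ratio of red over green, per the file headers, and the authors' deposited table of log2 ratios, whose normalization and centring are not given in the sources used here, were alternatives, and another 20 columns there were left unused. The direction of the table was found by setting each column against its own array. Background was corrected with normexp (offset 50) and ratios with loess in limma 3.58.1 under R 4.3.3. Outlier spots were left out, saturated ones kept. Dye-swap arrays were turned and averaged with their partner, so n is 5 animals per day. Signals of 20 arrays with 43628 spots each, 2256 of them controls, were used, and 34231 of 41012 gene probes passed the filter on dim probes.

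The test was lmFit and eBayes over all features, both days in 1 fit, with Benjamini-Hochberg adjustment at 0.05. Levels were scaled between arrays by Aquantile, with the animal as a random block (correlation 0.834, estimated on every 8th complete feature). The fits were tested on simulated data. Names came from the files and RefSeq. Genes were named with values by class (axonal transport kinesins, light chains, dynein and dynactin subunits), and by the 5 smallest p and the 2 highest and 2 lowest values per comparison, partners by the 3 smallest p. Replicate numbers were not a pairing. Kif1c and the genes under older names were named after their values were seen. The members and lists were chosen with earlier results of these data known. Alternatives covered background, normalization, filter, probe, dye orientation, scan date and left-out animals. The 5 animals per day limit the precision.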

Additional observations from a re-analysis of the deposited data

Results flagged for a closer look

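Of 54 groups of 5 animals (each tested gene measured in all 5 animals of a day, and the medians and plus-end contrasts of the list), 3 held 1 animal far from the others by Dixon's 95% limit, and chance flags about 1 in 20 groups. Kif1c had -0.79 in day 7 replicate 2, against -0.078 to 0.17 in the other 4 animals. Kif20a had 0.81 in day 7 replicate 1, against -0.15 to 0.058, and Kif4 had 0.31 in the same animal, against -0.072 to 0.0024.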

How the results depend on the processing

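The count of the 27 genes passing in limma stayed at 0 in every ratio comparison under all alternatives run, leaving out each animal included (0 to 0). In levels it was 0 under all but 1: with the replicate block in place of the animal block it was 1 in each cell type, Dctn6 at -0.44 (adjusted p = 0.0321) in sprouting and -0.49 (adjusted p = 0.0219) in non-sprouting neurons. By the sample titles a replicate number names separate animals at each day, and that fit leaves out the link between the pools of an animal. Same-numbered deviations had correlations of -0.20 to 0.036, with 0 of 5 best with their own number. These correlations cannot by themselves show that the animals are separate. In the ratio difference between days the replicate block gave 0. Leaving out animals one at a time also gave 0 to 0 in levels, a median ratio of -0.0095 to 0.022 at day 7 and -0.019 to 0.0036 at day 21, and a plus-end contrast of -0.047 to 0.045 at day 7 and -0.034 to 0.035 at day 21. The contrast was -0.090 at day 7 on forward arrays only and 0.079 at day 21 with Feature Extraction ratios.

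Signs turned for Kif3b at day 21 with the mean over its probes (-0.054), for Kif13a on forward arrays only (-0.031 at day 21, -0.00072 between days), and with scan date as a fixed block for Kif16b in sprouting (-0.029) and Kif22 (0.039) and Kif23 (-0.050) in non-sprouting neurons. The cause was not tested. Median centring of each channel moved the median of all features to -0.21 and -0.20 between days and Dctn6 to -0.88 and -0.93. Of the 27 genes 19 kept their day 7 sign and 6 their day 21 sign under all alternatives that kept every animal. Kif3a had an adjusted p of 0.158 to 0.811 at day 7 over these alternatives in limma. Over 8 alternatives Kif4b in non-sprouting levels passed in limma under 2 (no filter on dim probes, mean over the probes of a gene). Its lowest adjusted p there was 0.0438 in limma. Settings without saturated spots or without day 7 replicate 1 and day 21 replicate 4 together were chosen after seeing the data.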
